A study of Ambystoma mexicanum with 2 samples.

Results

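The axolotl tail libraries held 194 families of short RNA sequences that matched no entry of mirBase, a database of known microRNAs, and that were abundant in both tissues. Families were chosen by their read counts in both libraries: a family was included if its cell for partial mirBase homologies was empty in the deposited table (written as NA) and if it had at least 200 reads in each of the libraries. Of the 7785 families of the series, named amex-miR-pn, 6197 had no partial homology and 194 of these met both limits, which is 2.49% of all families and 3.13% of those without a homology. Of the others without a homology, 644 reached 200 reads in the blastema only, 200 in the control only and 5159 in neither. The read counts chose the families, so abundances and ratios are given as a description and were not tested.

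Both libraries came from tail tissue of the Mexican axolotl, a salamander that regrows its tail, and the labels name no strain, transgene or drug. The Control library was made from uninjured tail and the Blastema library from tail at 3 days post injury, when a mound of undifferentiated cells covers the stump. In each case tissue of 20 mature animals was pooled, and there was 1 library per condition. There is thus no replicate error, and each interval below is a 95% interval for counting error alone. Fewer cells of a type and less RNA per cell cannot be told apart in such pooled tissue.

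MicroRNAs are short RNAs that a pair of nucleases cuts from a hairpin precursor. They guide a silencing complex to messenger RNAs mainly through the seed, bases 2 to 8 from the 5′ end, and their 5′ end is cut more precisely than their 3′ end. Many animal microRNAs begin with U. A putative microRNA known only as a sequence in a small RNA library can also be a piece of a longer RNA, such as transfer or ribosomal RNA, of the animal or of bacteria on its tissue. The homology search of these families was against mirBase only, and no genome or set of other RNAs was used here, so neither the RNA class nor the organism of any family was determined. Some of the most common sequences resemble ribosomal or transfer RNA, possibly in part bacterial, by recognition and not by a search. Some sequences doubted on this ground were not printed, and those that are printed are not free of the doubt. The reads of all such sequences are in every count below. How much of the abundance and of the ratios they account for was not tested.

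The deposited counts summed to 12613931 control and 9952885 blastema reads, which were 70.6% and 45.9% of the stated depth. Shares below are of these sums. The microRNAs of skeletal and cardiac muscle, the miR-1/miR-206 and miR-133 families with miR-208 and miR-499, were 67.4% of the control and 14.3% of the blastema, while the epidermal miR-203 went from 0.0863% to 0.885% and miR-205 from 0.0121% to 0.0690%. A smaller share of muscle microRNAs leaves larger shares for all other RNAs, so ratios are also given for a total from which these were removed.

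The most common sequences of 129 of the 194 families (66.5%) were linked to at least 1 other by an exact run of 15 or more shared bases or by an edit distance of 4 or less, and they formed 31 groups. There were 65 families with no such link, so that 96 separate units remained. The 3 groups with the most reads, shown first, held 61 of the 194 families. Each group is called here by its family with the most reads. Letters are as in the deposited table, with T for U, and run from 5′ to 3′.

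The 4 families of the pn536 group held the most blastema reads. The run of 18 bases that these 3 share is in capitals.
amex-miR-pn536: agTTCTACAGTCCGACGATC
amex-miR-pn125: agaaTTCTACAGTCCGACGATC
amex-miR-pn2177: cagaaTTCTACAGTCCGACGATC

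The sequence of pn536 is that of the 3′ end of the 5′ adapter in Illumina small RNA kits. The match is from common knowledge of those kits, because the sources used here do not give the adapters of these libraries. Near these lay families listed with miR-3168, at an edit distance of 1 from pn2177 and of 2 from pn536 and pn125. Totals are given below with and without the group.

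The 24 families of the pn5309 group were the main set that was lower in the blastema. Their most common sequences were all 21 nucleotides long and aligned without gaps. Capitals mark the 11 positions that vary within the group, and the sequences shown are those with the most reads, those with the lowest ratios and others that show the choice of bases.
amex-miR-pn5309: gggGtGgAaGGTTgtAtGgAT
amex-miR-pn5305: gggGtGgAaGGATgtAtGgAT
amex-miR-pn3248: gggGtGgAaGGTTgtAtGgTT
amex-miR-pn4235: gggGtGgAaGGAAgtAtGgAT
amex-miR-pn4653: gggAtGgAaGGTAgtAtGgAT
amex-miR-pn4241: gggGtGgAaGGTTgtAtAgTT

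Families that do have a listed homology lay next to these. At an edit distance of 1 from pn5309 was pn4992, which is listed with let-7c and let-7a, and at 1 from pn4235 was pn3758, which is listed with miR-1.
amex-miR-pn4992: ggggtggtaggttgtatggat
amex-miR-pn3758: gggatggaaggaagtatggat

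The 33 families of the pn1826 group were the largest set by number. Capitals mark the run GGGGAC, searched in the strand as sequenced, which 27 of the 33 hold.
amex-miR-pn1826: ctgtgtggtacttGGGGACgg
amex-miR-pn2111: ctgtgcggtacttGGGGACgg
amex-miR-pn2777: ctgtgcggcacttGGGGACgg
amex-miR-pn2774: ctgtgcagcacttgtggacgg
amex-miR-pn2859: ctgtgcggcatttGGGGACgg
amex-miR-pn452: cagtttgatatttGGGGACa
amex-miR-pn2689: cgagcggtacttGGGGACgg

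Among the 194 families is pn3918, which the study followed further by qRT-PCR, by in situ hybridization and with an inhibitor. By qRT-PCR the paper reports a rise in the early blastema, and by in situ hybridization no expression in mature uninjured tissue. The control library held 374 reads of the family, and these unlike measures were not compared here. pn3918 is shown with pn4438 and pn3873, the other families of its group, and with the unlinked pn5137, whose seed resembles theirs. Capitals mark the seed.
amex-miR-pn3918: gGCTTCAAggatcgctcgggca
amex-miR-pn4438: gGCCTCAAagattgctcgggca
amex-miR-pn3873: gGCCTCAAggatcgctcagga
amex-miR-pn5137: gGCCGCAAaggttgcacaggga

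In abundance, the 194 families had 218138 control reads and 876310 blastema reads. These were 1.73% of the control library (1.72 to 1.74) and 8.80% of the blastema library (8.79 to 8.82). All counts of unmapped sequences were even, while known microRNAs could have odd counts, such as 13051 control reads for miR-133. Shares of a library were not computed with the even counts divided by 2, which would lower them. Their intervals do not cover this. Of the reads of all families without a homology, 40.8% (control) and 62.5% (blastema) fell in these 3.13% of the families. Without the pn536 group the shares were 1.71% and 6.94%. Of totals without the muscle microRNAs the 194 families were 5.31% and 10.3%.

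The reads were concentrated in few families. In the control the counts ranged from 200 to 15548 with a median of 461, and in the blastema from 206 to 141352 with a median of 1759. The 10 families highest in a library made up 38.3% of the control set and 46.2% of the blastema set. At least 1000 reads in both libraries were found for 34 families.

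The most abundant family was pn536, with 608 control and 141352 blastema reads. Its shares were 0.00482% and 1.42%, a log2 ratio of 8.20 (8.09 to 8.32), the highest of the 194. The next was pn892, with 15548 and 47476 reads, a log2 ratio of 1.95 (1.93 to 1.98). It had the most control reads of all 194 families and also the most member sequences, 195.

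pn1826 had 7300 control reads and 34734 blastema reads, a log2 ratio of 2.59. pn88 had 4980 and 29268 reads (2.90), and pn1244 had 3764 and 28210 (3.25). Each of these 3 had a share in the blastema from 6.03 to 9.50 times that in the control. pn1967 had 10518 and 21220 reads, a smaller log2 ratio of 1.35 (1.32 to 1.39). pn127 had 5650 and 24966 (2.49). pn260 had 2160 and 27318 reads, with an interval of 3.94 to 4.07 for its ratio.

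pn2177 of the pn536 group had 218 control reads and 26816 blastema reads, a log2 ratio of 7.28 (7.09 to 7.47). pn913 had 1506 and 23476 reads (4.30). Outside the pn536 group the highest ratio was that of pn4462, which had 524 control reads and 9680 blastema reads, a log2 ratio of 4.55 (4.42 to 4.67). All 29 of its sequences had a larger share in the blastema, but 20 of them had no control reads. A sequence without control reads can only be higher in the blastema, so these 20 add nothing to the ratio of the family.

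**Figure D1:**
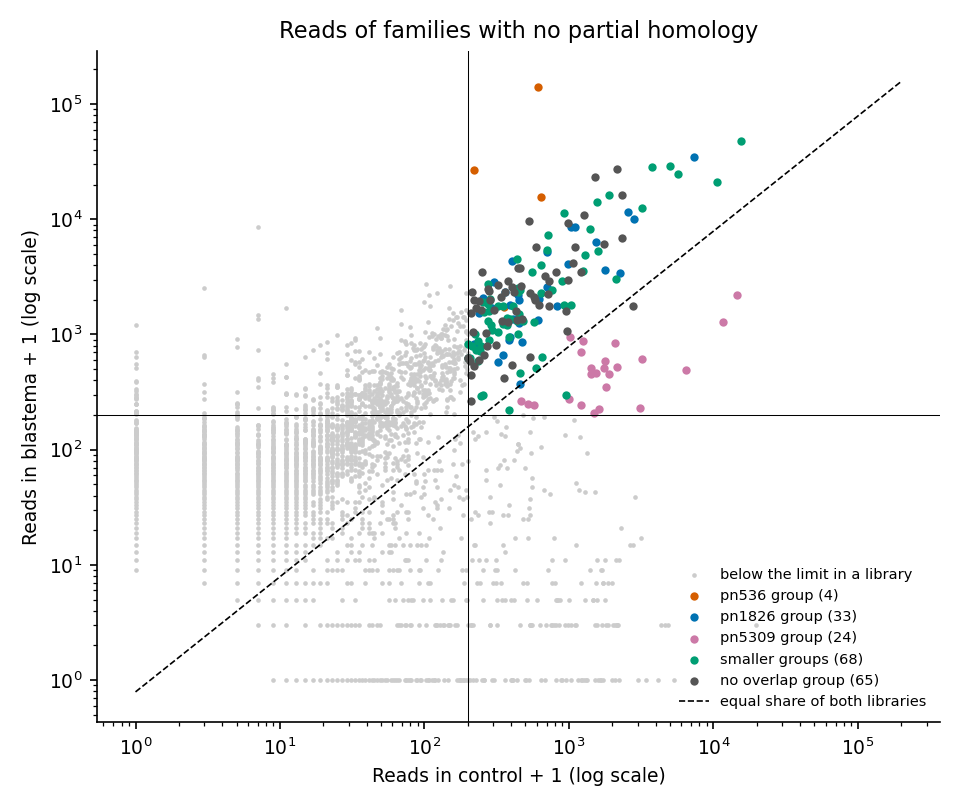
Control (x) and blastema (y) reads of each family with no partial homology, 1 added, both axes logarithmic; gray points are below 200 reads in a library, coloured points are the 194 families by overlap group, lines mark 200 reads and the dashed line an equal share of both libraries. The pn536 group lies far above the dashed line, with 141352 blastema and 608 control reads for pn536, and the pn5309 group lies mostly below it.

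At the limit itself, 4 families had exactly 200 reads in the smaller of their counts. pn3659, pn3601 and pn3928 each had 200 control reads, with 620, 624 and 630 in the blastema, and log2 ratios of 1.97, 1.98 and 1.99. Just outside were pn1663 with 198 and 1012 reads (2.69), pn2968 with 198 and 686 (2.13), and pn4705, which had 476 control reads and 198 blastema reads (-0.92). Families on either side of the limit thus had similar counts. Another family named in the study, pn2533, was outside with 98 control reads and 1908 blastema reads (4.62), and so was pn2611 with 10 and 236 (4.84).

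Most of the 194 families had a larger share in the blastema. The log2 ratio of blastema over control ranged from -3.42 to 8.20 with a median of 2.16, and its quartiles were 1.42 and 2.94. A share 2-fold or more higher in the blastema was found for 154 families (79.4%), and one 2-fold or more lower for 18 (9.28%). These numbers rested on the total: without the muscle microRNAs 80 were higher and 31 lower, with a median log2 ratio of 0.765, and with the TMM factors of edgeR 38 were higher and 41 lower, with a median of 0.0222. The TMM factors were computed from 12348 features, which were the known labels and all 7785 families, the 194 included. All families with at least 10 reads had a median log2 ratio of 2.61. A median near 0 under TMM is therefore in large part built in. Among the 5322 families without a homology and with at least 10 reads over both libraries, 82.7% were higher and 10.5% lower, and among all 6846 families with that many reads 75.1% were higher and 16.3% lower. The median log2 ratio of those 5322 families was 2.87. Of the 106 families with a listed homology and at least 200 reads in each library, 42.5% were higher and 29.2% lower. Their median log2 ratio was 0.571. At least 4-fold higher were 113 of the 194 and at least 16-fold higher 7. Shares of all families at these cuts were not counted. The median log2 ratio of 2.61 for all families with at least 10 reads was itself past 4-fold, so the 113 cannot be called a trait of the set. That background has a lower read limit than the 194 and the 106 families.

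The counting error was small against these differences. The interval was above 0 for 166 families, below 0 for 26 and included 0 for 2. All counts of unmapped sequences in the deposited table were even numbers. With each count divided by 2 and the totals unchanged, the intervals above, below and including 0 numbered 166, 25 and 3. The number of families on each side of 0 depended on the total: 168 families were above 0 with the deposited counts, 158 with the stated depth, 169 with known reads, 146 with the muscle microRNAs left out and 100 with edgeR's TMM factors, under which 94 were below 0. Neither the intervals nor the sides of 0 were counted over all families. Of all 6846 families with at least 10 reads, 75.1% were at least 2-fold higher, so such a lean was not particular to the set. That background has a lower read limit, however. Of the 106 families with a listed homology and at least 200 reads in each library, 42.5% were 2-fold higher and 29.2% lower.

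Nearest to no difference were pn2909, with 456 control reads and 372 blastema reads (0.05, from -0.15 to 0.25), pn1395 with 588 and 514 (0.15, from -0.02 to 0.32), and pn4709 with 1248 and 878 (-0.17, from -0.29 to -0.04). In pn2909 6 of the 9 sequences had a larger share in the blastema, and in pn1395 10 of 20.

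**Figure D2:**
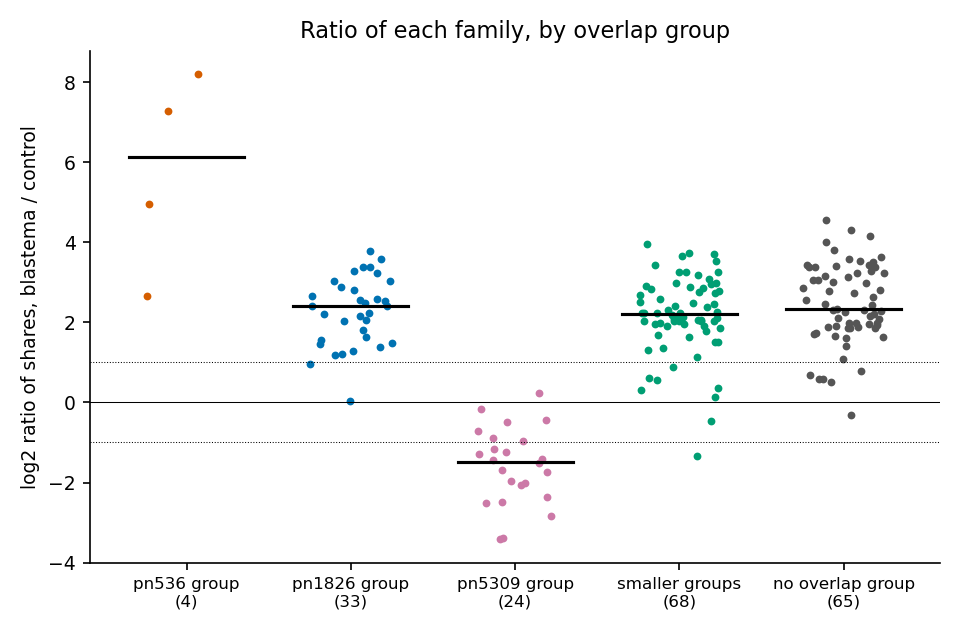
Log2 ratio of the share in the blastema over that in the control (y) for each of the 194 families, by overlap group (x, number of families in parentheses); points are families, thick bars medians and dotted lines 2-fold. The pn5309 group lies between -3.42 and 0.25 with a median of -1.48, and the pn1826 group between 0.05 and 3.77 with a median of 2.40.

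The families lower in the blastema were almost all of 1 kind. Of the 18 that were at least 2-fold lower, 17 belonged to the pn5309 group, and the remaining one was pn1394, with 956 control reads and 296 blastema reads (-1.35, from -1.54 to -1.16). None of the 24 families of the pn5309 group was 2-fold higher. Outside the group 3 of 170 families had a log2 ratio below 0. Without it the median of the set was 2.29.

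As a whole the pn5309 group had 65104 control and 13750 blastema reads, which made up 29.8% and 1.57% of the set. The log2 ratio of its summed reads was -1.90 (-1.93 to -1.87), and it stayed below 0 under each of the 4 other totals, from -1.71 with known reads to -4.04 with TMM. With the deposited counts 23 of its 24 families were below 0, and the exception was pn5243 with 1018 and 952 reads (0.25, from 0.12 to 0.37), which was below 0 with the stated depth, with TMM and without the muscle microRNAs.

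pn5309 itself had 14584 control reads and 2222 blastema reads, a log2 ratio of -2.37. pn5305 had 11564 and 1284 reads (-2.83), and none of its 21 sequences had a larger share in the blastema. Of these, 8 had no blastema reads and could only be lower. The lowest ratio of the 194 families was that of pn4235, with 3104 and 228 reads, -3.42 (-3.62 to -3.23), followed by pn3248 with 6478 and 490 reads, -3.38 (-3.51 to -3.25). The blastema share of either was under 0.1 of that in the control. pn4984 had 1498 and 206 reads (-2.52) and pn5326 had 1618 and 226 (-2.50).

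The sequences of this group had properties that the choice by counts did not use. The group was formed by similar sequence, however, so shared bases and few seeds are in part built in. None of the 24 contained a C, against 3 of the other 170 families and 7.46% of all families. At 10 of the 11 variable positions only a pair of bases occurred, and the group held 4 distinct seeds. The seed GGGTGGA was held by 13 families with 48706 control reads and 8420 blastema reads, and the seed GGATGGA by 9 with 12886 and 4654 reads.

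Although their homology cells are empty, all 24 lay within an edit distance of 2 of a family with a listed homology, and 20 within 1. Of the other 170 families, 14 lay within 2 and 5 within 1. The 24 were grouped by similar sequence, so they are not separate observations of such nearness. Within 2 of a family listed with miR-1, a muscle microRNA, were 14 of the 24, within 2 of a family listed with let-7, a microRNA known for its rise as cells differentiate, were 13, and within 2 of one listed with miR-206, also of muscle, were 7. The 326 families listed with miR-1 had a log2 ratio of summed reads of -2.50, the 116 listed with miR-206 one of -2.35, and the 267 listed with let-7 one of 0.08. For others of the 24 the nearest family, by reads where distances tied, was listed with miR7744-5p, miR-6745, miR-1331 or miR-8953. Distances and ratios for these labels were not summed up. Whether reads of any listed microRNA had a part in the counts of the group was not tested. Over all 194 families the median distance to the nearest family with a homology was 7, and 145 were at 5 or more.

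The pn1826 group had 31800 control reads and 134852 blastema reads in 33 families. The log2 ratio of its summed reads was 2.43 (2.41 to 2.44), with 31 families at least 2-fold higher and 2 within 2-fold. It was above 0 under each total, from 0.29 with TMM to 2.62 with known reads, but under TMM 13 of the 33 families were below 0 and without the muscle microRNAs 6 were. The run GGGGAC was in 2 of the other 161 families and in 2.15% of the most common sequences of all families. As the group was formed by similar sequence, a run common to its families is in part built in. All 33 contained GGAC, and 17 began with CTGTG.

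Among the most abundant families of the group, pn2111 had 2542 control reads and 11606 blastema reads (2.53), pn2777 had 1040 and 8606 (3.39) and pn2774 had 1102 and 8516 (3.29). Their sequences differ from that of pn1826 at few positions, and their ratios lay within 1 log2 unit of its 2.59.

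Within this group the ratio differed with the 3′ end of the sequence. In 17 pairs of families the most common sequence of one was the start of the other, which went on for 1 to 3 more bases, and in all 17 pairs the family with the longer sequence had the lower ratio. The difference, longer minus shorter, ranged from -2.35 to -0.19 with a median of -1.14, and does not depend on the total used. With each count divided by 2 its interval was below 0 for all 17. The pairs share families, 25 in all, and are not independent. In 16 such pairs outside the group the longer sequence had the lower ratio in 5 and the higher in 11, with a median difference of 0.12, and the interval included 0 for 9 of them.

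Both of the longest series are shown with the added bases in capitals.
amex-miR-pn2783: ctgtgtggtacttggggacg
amex-miR-pn1826: ctgtgtggtacttggggacgG
amex-miR-pn3467: ctgtgtggtacttggggacgGA
amex-miR-pn1827: ctgtgtggtacttggggacgGTT
amex-miR-pn2689: cgagcggtacttggggacgg
amex-miR-pn2908: cgagcggtacttggggacggA
amex-miR-pn2985: cgagcggtacttggggacggTA
amex-miR-pn2909: cgagcggtacttggggacggTT

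In the first series pn2783 had 254 control reads and 2082 blastema reads (3.37), pn1826 had 7300 and 34734 (2.59), pn3467 had 984 and 4096 (2.40) and pn1827 had 824 and 1782 (1.45). The ratio was lower at each step in length. In the second, pn2689 had 1538 and 6398 reads (2.40), pn2908 had 388 and 946 (1.63), pn2985 had 322 and 574 (1.17) and pn2909 had 456 and 372 (0.05). Here the pair of 22-nucleotide sequences, which differ in their last base, also differed in ratio, with the one ending in TT lower. When all sequences of the group were summed by length, the log2 ratio was 2.71 at 20 nucleotides, 2.90 at 21, 1.88 at 22 and 1.70 at 23.

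**Figure D3:**
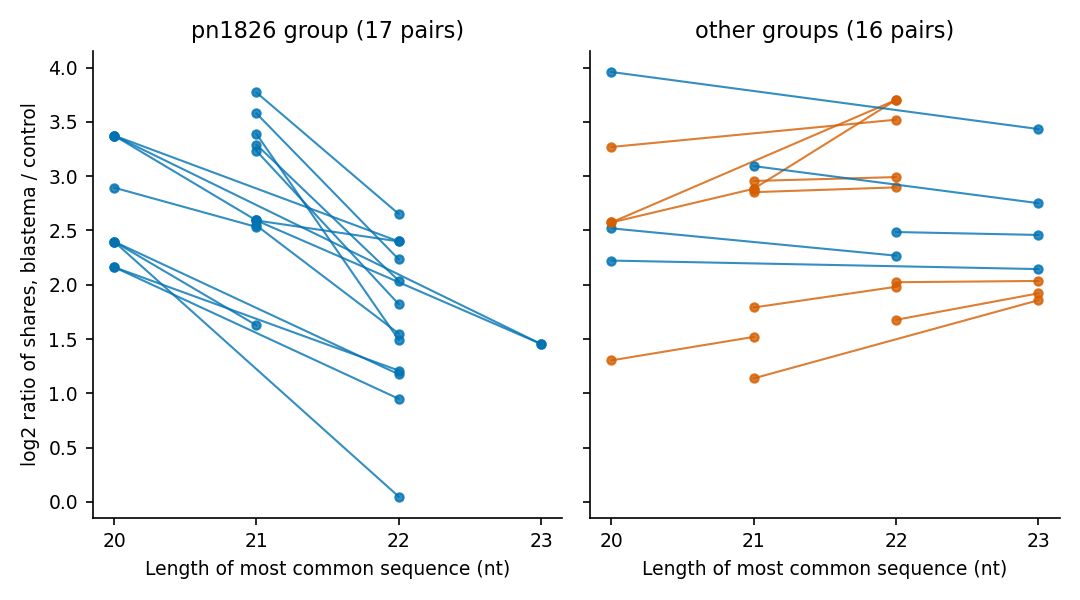
Pairs of families in which one most common sequence is the start of the other, with its length in nucleotides (x) and the log2 ratio of blastema over control (y); a line joins each pair, blue where the longer is lower and orange where it is higher. All 17 pairs of the pn1826 group slope down, while 11 of the 16 other pairs slope up.

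pn3918, a family of 16 sequences, had 374 control and 1208 blastema reads, below the median of the 194 families in both libraries. Its log2 ratio was 2.03 (1.86 to 2.20). Its most common sequence had 144 control reads and 582 blastema reads, a ratio of 2.35, and 84.6% of the reads of the family shared its first 10 bases while 55.8% shared its last 10.

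The other families of its group were more abundant, with ratios inside its interval. pn4438, at an edit distance of 3, had 1586 and 5268 reads (2.07), and pn3873, also at 3, had 638 and 2276 (2.18). The seed GCCTCAA is common to pn4438 and pn3873, while the seed of pn3918 has another base at 1 position. pn5137, which is outside the group at 8 from pn3918 and at 5 from pn4438, was less abundant, with 236 and 594 reads, and had a lower ratio (1.67, from 1.45 to 1.89). The ratio of pn3918, pn4438 and pn3873 together was 2.09 (2.03 to 2.16), and it was -0.04 with TMM and 0.70 without the muscle microRNAs.

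The smaller groups held sequences shifted along each other or differing by substitutions. Of the 28 groups of 2 to 4 families other than the pn536 group, 21 spanned less than 1 log2 unit, with a median span of 0.45 and a largest span of 1.65 in the pn3925 group. The 2 larger groups spanned more, from 0.05 to 3.77 in the pn1826 group and from -3.42 to 0.25 in the pn5309 group. So did the pn536 group, with only 4 families, from 2.65 to 8.20. In the pn127 group, whose shared run of 20 bases is in capitals, the ratios lay between 2.05 and 2.49.
amex-miR-pn127: gaATACCAGGTGCTGTAGGCAT
amex-miR-pn3830: ggaATACCAGGTGCTGTAGGCAT
amex-miR-pn3794: gaATACCAGGTGCTGTAGGCATt
amex-miR-pn462: ATACCAGGTGCTGTAGGCATt

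pn3830 had 900 control reads and 2940 blastema reads (2.05), pn3794 had 410 and 1780 (2.46) and pn462 had 320 and 1054 (2.06). The pn1244 group, with a shared run of 17 bases, spanned more.
amex-miR-pn1244: agtGGTTAGGATTCGGCGCT
amex-miR-pn3372: ctagtGGTTAGGATTCGGCGCT
amex-miR-pn5496: GGTTAGGATTCGGCGCTctc

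Here pn3372 had 272 and 2730 reads (3.67), pn1244 was at 3.25, and pn5496, which starts and ends further toward the 3′ side, had 448 and 1518 reads (2.10). pn892 and pn2597 end in the same 16 bases, of which the last are CCA, the bases that cells add to the 3′ end of transfer RNAs.
amex-miR-pn892: cgagaCCGGGCGGAAACACCA
amex-miR-pn2597: cgaccCCGGGCGGAAACACCA

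pn2597 had 444 control reads and 1004 blastema reads (1.52), below the 1.95 of pn892. Of the 194 families, 9 had a most common sequence ending in CCA (4.64%), against 2.03% of all families and 6.60% of the 106 families with a listed homology and at least 200 reads in each library. The RNA of origin was not determined for any of them.

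Many of the 194 families were near copies of each other, although the authors had grouped sequences at an edit distance of 4. The most common sequence was within 4 edits of that of another of the 194 in 123 families, and 1 edit away in 82. In 72 families the sequence either contained another or was contained in it. When each group was counted once by its summed reads, 86 of 96 units were higher in the blastema by 2-fold or more and 1 was lower, with a median log2 ratio of 2.30. The lower unit was the pn5309 group, whose 24 families here count once. Families outside the set were not grouped in this way, so no share over all families can be set beside these counts. Ungrouped, all families with at least 10 reads had a median of 2.61, and those without a homology 2.87. The counts are for the deposited total. The 65 unlinked families ranged from -0.31 to 4.55, with a median of 2.34.

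In length, 39 of the most common sequences had 20 nucleotides, 74 had 21, 57 had 22 and 24 had 23. The paper states that reads of 20 to 22 nucleotides were mapped, and all 7785 families lay between 20 and 23. The range is thus that of the whole table and not a property of the 194 families. Sequences of 21 and 22 nucleotides were 38.1% and 29.4% of the 194, against 35.3% and 23.2% of all families, and those of 23 were 12.4% against 18.7%. All 18 families at least 2-fold lower in the blastema had 21 nucleotides, as the pn5309 group does. The median log2 ratio was 2.52 for families of 20 nucleotides, 1.87 for 21, 2.21 for 22 and 2.15 for 23.

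Counted by reads, sequences of 20 nucleotides were 15.3% of the control set but 35.6% of the blastema set, and those of 21 were 57.2% and 31.0%. These shares rested on the groups with the most reads. With the pn536, pn1826 and pn5309 groups left out, 20 nucleotides held 23.8% and 27.9%, and 21 held 40.6% and 34.2%.

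The families were large. They held 5051 sequences in all, from 4 to 195 per family with a median of 17, while the median of all 7785 families was 3 and 2179 of these held a single sequence. Families with more reads held more sequences (Spearman's rho 0.79 across the 194 families, which share their libraries), so that the limit on reads and the size of the families are not separate properties. The largest after pn892 were pn125 with 194 sequences and pn536 with 174. At least 50 sequences were in 21 families and at most 5 in 8. For comparison, the 106 abundant families with a listed homology held a median of 23.

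**Figure D4:**
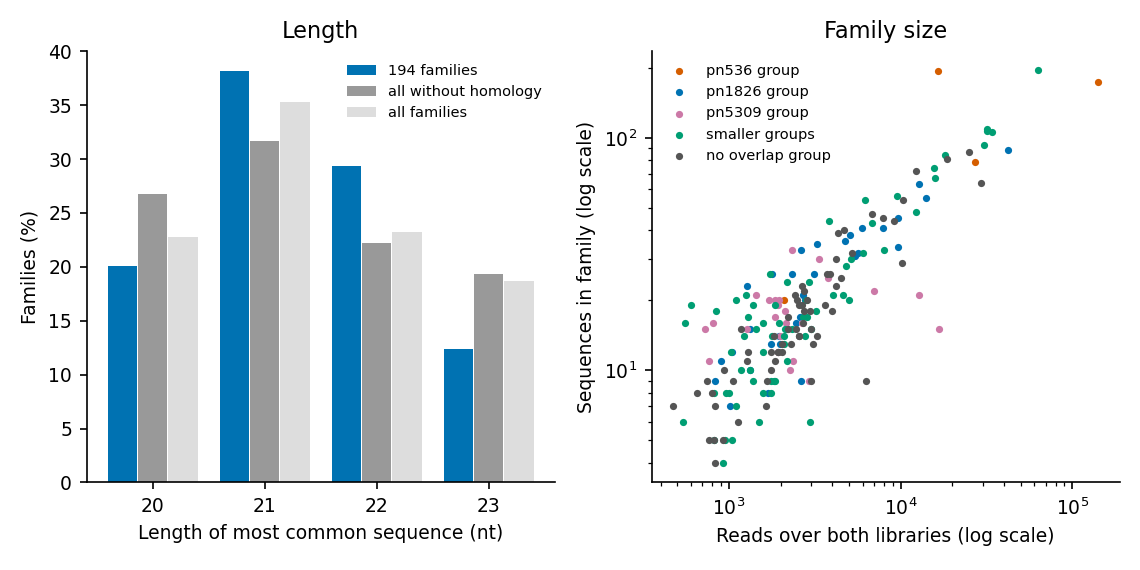
Left, percent of families (y) by the length of the most common sequence in nucleotides (x) for the 194 families, all families with no homology and all families; right, sequences per family (y) against reads over both libraries (x) for the 194 families by overlap group, both axes logarithmic. The 194 families are most often 21 nucleotides long (38.1%), a share that includes all 24 of the pn5309 group. The number of sequences rises with the number of reads.

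The most common sequence held a median of 54.3% of the reads of its family, from 7.64% to 97.9%. By library the median was 48.6% for control and 56.2% for blastema reads. By the counts, the listed sequence had the most reads over both libraries in 183 of the 194 families. Used alone, it reached 200 reads in each library in 97 families.

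The log2 ratio of the listed sequence minus that of the family had a median of 0.10 and ranged from -0.85 to 4.78. Differences of opposite sign partly cancel in this median. The 2 ratios differed by 1 or more in 11 families. The largest differences were in the pn536 group. The listed sequence of pn536 had 12 of 608 control reads but 79906 of 141352 blastema reads, a log2 ratio of 13.0 against 8.20 for the family. That of pn2177 had 42 and 23720 reads (9.47 against 7.28), and that of pn125 had 58 and 4972 (6.75 against 4.96). Most control reads of these families were thus in other sequences: of the 174 sequences of pn536, 19 contained the run of 18 bases, with 178 control and 124404 blastema reads. The remaining family of the group, pn1722, had 352 and 1748 reads (2.65).

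With the deposited counts as total, the listed sequence and the family lay on different sides of 0 in 3 families. Another total shifts both ratios alike, so the sides of 0 given here hold for this total only. The listed sequence of pn1303 had 10 control reads and 36 blastema reads (2.14) in a family with 384 and 218 (-0.47), and that of pn3108 had 538 and 776 (0.87) in a family with 2764 and 1758 (-0.31). That of pn1302 had 112 and 74 (-0.25) in a family with 254 and 298 (0.57). In pn3411 both were above 0, with 78 and 350 reads (2.50) against 650 and 636 for the family (0.31). A family thus did not always move as its listed sequence did.

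**Figure D5:**
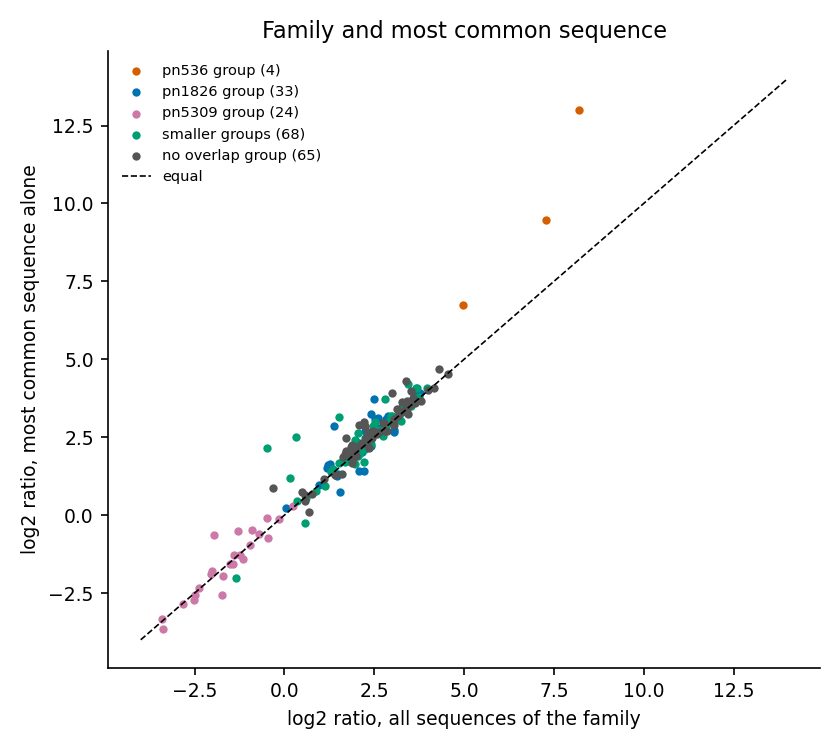
Log2 ratio of blastema over control from all sequences of a family (x) and from its most common sequence alone (y) for the 194 families, by overlap group; the dashed line marks equal values. Most points lie near the line, and pn536 lies farthest from it, at 8.20 and 13.0.

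The ends of the sequences were examined next, since microRNAs have a more precise 5′ end. The share of reads of a family with the same first 10 bases as its most common sequence had a median of 84.7%, and the share with the same last 10 bases one of 68.3%. A substitution within the 10 bases counts here as a shifted end does, so these shares do not measure the place of the cut alone. The first was the larger in 138 families and the second in 55. In the 106 abundant families with a listed homology these medians were 90.05% and 61.0%. At least 90% of the reads shared the first 10 bases in 80 of the 194 (41.2%) and in 54 of the 106 (50.9%). The groups differed among themselves: the median at the 5′ end was 93.2% in the pn5309 group and 83.7% in the pn1826 group, and in the pn536 group the 3′ end was the more constant, with 93.4% against 75.3%. In pn892 95.2% of the reads shared the last 10 bases and 36.4% the first 10.

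Few families began with T, the U of the RNA. There were 4 (2.06%), against 5.05% of all families and 2.83% of the 106 abundant families with a homology. Of all 59811 unmapped sequences 3.63% began with T, so that this base was rare at the start throughout the table. A C began 80 of the 194 sequences (41.2%, against 27.7% of all families), a G began 63 and an A 47. Near copies count separately here: all 24 families of the pn5309 group began with G, and 17 of the pn1826 group with CTGTG. First bases were not counted without these groups. The median G+C content was 54.8%, against 52.2% of all families.

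By their seeds the 194 families were diverse. There were 135 distinct seeds, 109 of them held by a single family. After the seeds of the pn5309 group, the most shared were TGTGCGG and TGTGTGG of the pn1826 group, with 7 families each. The first of these had 6332 control reads and 32308 blastema reads, with ratios from 1.49 to 3.39, and the second 10240 and 48670, with ratios from 1.45 to 3.58.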

How the data were processed

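Small RNA from 1 Control and 1 Blastema library was sequenced on the Illumina Genome Analyzer. The authors trimmed reads with ShortRead and mapped them to mirBase 21 with Bowtie 1.1.2 allowing 2 mismatches. They deposited counts of each mirBase entry and of each unmapped sequence, which were used here as given. All counts of unmapped sequences were even, for a reason not determined, so they may not be plain read numbers. The deposited family counts are sums over sequences that the authors grouped at a Levenshtein distance of 4. The sums were checked for all 194 families, and the distances within families were not. Columns with the authors' normalized values and fold changes were not used.

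Ratios are log2 of blastema over control shares after adding 0.5 to the reads, with 95% Poisson intervals. Shares have Wilson intervals. PCR copies are not independent molecules, so intervals cover counting error only. No p-value is given. Edit distances used edlib, and the shared run for a group was 15 bases. Alternatives were 4 other totals (stated depth, known reads, no muscle microRNAs, TMM factors of edgeR 4.0.16), 5 reads added, the most common sequence alone, limits of 100 and 1000 reads, and shared runs of 12 and 18 bases. The TMM factors were computed over the known labels and all families together. Groups left out or counted once were alternatives chosen after seeing the data.

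Named were the 10 families with the most reads, the 5 highest and 5 lowest ratios, the 3 ratios nearest 0, the 3 with the most sequences, 3 on each side of the limit, and families named in the paper without a homology. Other names were chosen after their values were seen. Families and lists were chosen with earlier results of these data known. The intervals were run on simulated counts with Poisson error only, the error they assume, so that run does not show how well they hold here. Calculations ran in R 4.3.3 and in Python 3.11.15 with SciPy 1.17.1, NumPy 2.4.6 and pandas 2.3.3, and plots in Matplotlib 3.10.9.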

Additional observations from a re-analysis of the deposited data

How the results depend on the processing

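With 1 library per condition no replicate could be left out, and no paired analysis was possible because there is 1 library per condition. The absence of replicates could not be measured. The choice of total shifts every log2 ratio by -0.62 with the stated depth, 0.19 with known reads, -1.39 without the muscle microRNAs and -2.14 with TMM, so that the median of 2.16 became 1.54, 2.35, 0.765 and 0.0222. The numbers at least 2-fold higher and lower, 154 and 18, were 80 and 31 without the muscle microRNAs and 38 and 41 with TMM. With TMM the log2 ratio was below 0 for pn892 (-0.18), pn1967 (-0.78), pn3659 (-0.17), pn3601 (-0.16), pn3928 (-0.14), pn2968 (-0.0047) and pn3918 (-0.10), and without the muscle microRNAs for pn1967 (-0.0396). Of the 3 families nearest 0, pn2909 and pn1395 were below 0 with the stated depth (-0.57 and -0.47), without the muscle microRNAs (-1.35 and -1.25) and with TMM (-2.09 and -1.99), and pn4709 was above 0 with known reads (0.03).

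Limits of 100 and 1000 reads gave 399 and 34 families, 332 and 29 of them higher and 29 and 2 lower. Without the pn5309 group 1 family was lower, and with each group counted once 86 were higher and 1 lower. The share of reads in the control, 1.73%, was 2.01% and 0.950% with these limits, 1.91% of known reads, 5.31% without the muscle microRNAs, 1.22% of the stated depth, 1.71% without the pn536 group and 1.21% without the pn5309 group. That in the blastema, 8.80%, was 10.1%, 4.19%, 11.1%, 10.3%, 4.04%, 6.94% and 8.67% in the same order, and 7.38% without pn536 alone. The share of families in groups, 66.5%, was 68.0% with runs of 12 bases and 64.9% with runs of 18. With 5 reads added all 29 named families stayed within their intervals, and with the most common sequence alone 12 did.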
